A study of Mus musculus with 6 samples.

Results

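The genes described are 39 enzymes of nucleotide synthesis, salvage and folate metabolism, read in RAW264.7 cells, a mouse macrophage line, after 3 days on a modified or a pristine surface of polyetheretherketone (PEEK), a polymer used for bone implants. The genes were listed by name and matched by symbol through the platform annotation. Of the 39, 37 were measured, among 19505 genes in all; Pfas and Impdh2 had no match. They fall into 11 deoxynucleotide genes, 9 pyrimidine genes, 14 measured purine genes and 3 folate genes. There were 3 arrays from cells on modified PEEK and 3 from cells on pristine PEEK, the control. The labels do not say how the surface was modified. All cells are of 1 established line grown in the same medium with fetal bovine serum, seeded in triplicate on each surface. Whether the triplicates were separate experiments is not stated, so each p-value reflects the scatter of these arrays alone, and that scatter may be technical.

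Purine and pyrimidine rings are built stepwise on a phosphoribosyl unit, or are recovered by salvage enzymes from free bases and nucleosides. Ribonucleotide reductase turns ribonucleotides into the deoxynucleotides used for DNA, and thymidylate synthase adds the methyl group that makes thymidylate, using a folate cofactor. Folate enzymes also supply carbon for the purine ring. In dividing cells the deoxynucleotide branch is most active in S phase, while macrophages at rest are known for holding deoxynucleotides low through the hydrolase SAMHD1.

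The values are log2 signals between 0.941 and 12.4, and array medians lay between 4.98 and 5.10. A background level of 3.72 was taken from 1412 genes of the olfactory and vomeronasal receptors (their 95th percentile), and the means of all 37 genes lay above it on both surfaces. Of 8 macrophage markers, 7 were measured, with means from 8.22 to 12.03 on modified PEEK and from 8.22 to 11.95 on pristine PEEK; Adgre1 was higher, and Itgam and Fcgr1 were lower, on modified PEEK. Of 6 measured markers of other cell types, 5 lay below the background on both surfaces, and the collagen gene Col1a1 averaged 6.002 on modified PEEK and 5.80 on pristine PEEK (adjusted p = 0.593). In bulk RNA, fewer cells using a gene and less RNA per cell cannot be told apart.

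On modified PEEK, 15 of the 37 enzyme genes rose and 0 fell by limma's moderated test at an adjusted p under 0.05. Among all genes tested, 5.24% were higher and 5.15% lower by the same rule, 10.4% in all. The deoxynucleotide group held 8 of the 15, out of 11 measured. Pyrimidine synthesis gave 3 of 9, purine synthesis and salvage 4 of 14, and the folate group 0 of 3. The median log2 change was 0.53 for deoxynucleotide genes, 0.24 for pyrimidine genes, 0.22 for purine genes and 0.33 for folate genes, against 0.0088 for all genes. At an unadjusted p under 0.05, 23 of the 37 were higher (11.3% of all genes) and 3 lower (Rrm2b, Impdh1 and Aprt; 11.4% of all genes). With the variance fitted to a trend on intensity, 22 were higher (8.13% of all genes) and 2 lower, Rrm2b and Aprt (8.81% of all genes). Leaving out modified PEEK replicate 3 cut the 15 higher genes to 9, and the higher calls among all genes from 1023 to 673. Leaving out pristine PEEK replicate 1 or 2 cut the 15 to 8 (633 and 654 higher among all genes). Without replicate 3 of pristine PEEK 7 were left (594 higher among all genes). Rrm1, Rrm2, Tyms, Tk1, Dtymk, Ctps and Prps2 passed under all 15 alternatives run. Averaging a gene's probe sets, among them, could not alter the values of the 37 genes.

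**Figure D1:**
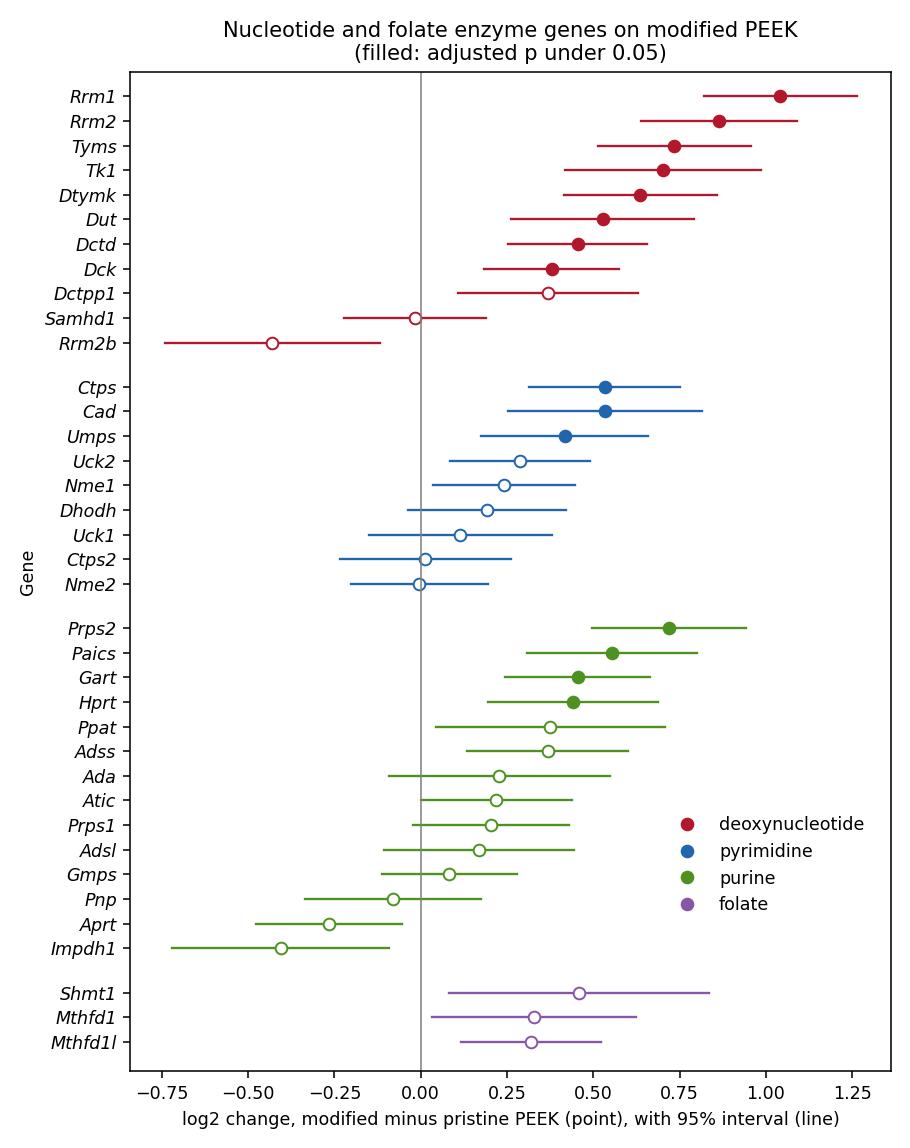
Log2 change of each of the 37 genes, modified minus pristine PEEK (horizontal axis), by group (colour), with the moderated 95% interval as a line; filled points passed at an adjusted p under 0.05. The 3 largest changes are those of Rrm1, Rrm2 and Tyms in the deoxynucleotide group, and all 15 filled points lie above 0.

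Array by array, the 11 deoxynucleotide genes averaged 0.46 to 0.51 above the pristine PEEK mean on the 3 modified PEEK arrays, against -0.038 to 0.035 on the 3 pristine PEEK arrays. The 9 pyrimidine genes averaged 0.20 to 0.33 on modified PEEK, against -0.049 to 0.036 on pristine PEEK. For the 14 purine genes the averages were 0.15 to 0.25 on modified PEEK, against -0.025 to 0.022 on pristine PEEK. The 3 folate genes averaged 0.21 to 0.50 on modified PEEK, against -0.097 to 0.050 on pristine PEEK. Each of these groups therefore stood higher on every modified PEEK array than on any pristine PEEK array. The arrays of the surfaces did not overlap, with modified PEEK higher, for 26 of the 37 genes (14.3% of all genes), and did not overlap with modified PEEK lower for 3 (14.5% of all genes).

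Both subunits of the S phase ribonucleotide reductase rose. Rrm1, the large catalytic subunit, read 9.005, 9.14 and 9.15 on modified PEEK, against 7.97, 8.07 and 8.13 on pristine PEEK. Its change was 1.04 ± 0.10 (SE), a 2.06-fold rise (adjusted p = 0.000482), and it lay at percentile 99.1 of the changes of all genes. Rrm2, the radical-bearing small subunit made in S phase, read 9.37, 9.38 and 9.20 on modified PEEK, against 8.37, 8.49 and 8.49 on pristine PEEK, a rise of 0.86 ± 0.10 (adjusted p = 0.00114). For both genes the lowest modified PEEK array stood well clear of the highest pristine PEEK array. Rrm2b, the p53-inducible small subunit that serves DNA repair and mitochondrial DNA, went the other way without passing: 6.56, 6.28 and 6.73 on modified PEEK, against 6.83, 7.08 and 6.95 on pristine PEEK (-0.43, 95% interval -0.74 to -0.12, adjusted p = 0.0912). Its arrays did not overlap between the surfaces.

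Tyms, Tk1 and Dtymk, which make thymidine nucleotides for nuclear DNA, all rose. Tyms, thymidylate synthase, read 8.10, 8.08 and 8.18 on modified PEEK, against 7.49, 7.29 and 7.37 on pristine PEEK, a 1.66-fold rise (adjusted p = 0.00223). Tk1, the cytosolic thymidine kinase of dividing cells, read 7.51, 7.42 and 7.67 on modified PEEK, against 6.63, 6.87 and 6.99 on pristine PEEK (0.70 ± 0.12, adjusted p = 0.00916). Dtymk, the thymidylate kinase that both routes need, read 7.92, 7.83 and 7.92 on modified PEEK, against 7.23, 7.16 and 7.37 on pristine PEEK (0.64 ± 0.10, adjusted p = 0.00450). In all 3 genes every modified PEEK array exceeded every pristine PEEK array.

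Dut, the dUTPase that keeps uracil out of DNA and yields the substrate of thymidylate synthase, read 6.59, 6.77 and 6.97 on modified PEEK, against 6.28, 6.23 and 6.24 on pristine PEEK (0.53 ± 0.12, adjusted p = 0.0235). Dctd, the deoxycytidylate deaminase that feeds the same substrate pool, read 9.19, 9.12 and 9.14 on modified PEEK, against 8.66, 8.69 and 8.75 on pristine PEEK (0.45 ± 0.09, adjusted p = 0.0137). Dck, the deoxycytidine kinase of salvage, read 7.67, 7.63 and 7.63 on modified PEEK, against 7.27, 7.27 and 7.24 on pristine PEEK (0.38 ± 0.08, adjusted p = 0.0260). These 3 rises were smaller than that of Rrm1, and their calls were lost in some settings. Dck no longer passed with 5 arrays, whichever was dropped (adjusted p between 0.0516 and 0.113), nor with arrays centred on their medians (0.0548). Dut passed with 5 arrays only when modified PEEK replicate 1 was the one dropped (otherwise up to 0.0876). Dctd did not pass when any pristine PEEK array was dropped (up to 0.0624).

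Samhd1 and Dctpp1, which break down deoxynucleotides, did not pass. Samhd1, the deoxynucleotide hydrolase of resting macrophages, read 9.31, 9.25 and 9.27 on modified PEEK, against 9.25, 9.37 and 9.26 on pristine PEEK (-0.018, 95% interval -0.22 to 0.19, adjusted p = 0.940). Its arrays overlapped between the surfaces, and the interval leaves room for a small change in either direction. Dctpp1, which hydrolyses dCTP and its modified forms, read 7.69, 7.97 and 7.64 on modified PEEK, against 7.43, 7.35 and 7.42 on pristine PEEK (0.37, 95% interval 0.11 to 0.63, adjusted p = 0.0859). The Dctpp1 arrays did not overlap, with modified PEEK higher, and the gene passed with the intensity trend.

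**Figure D2:**
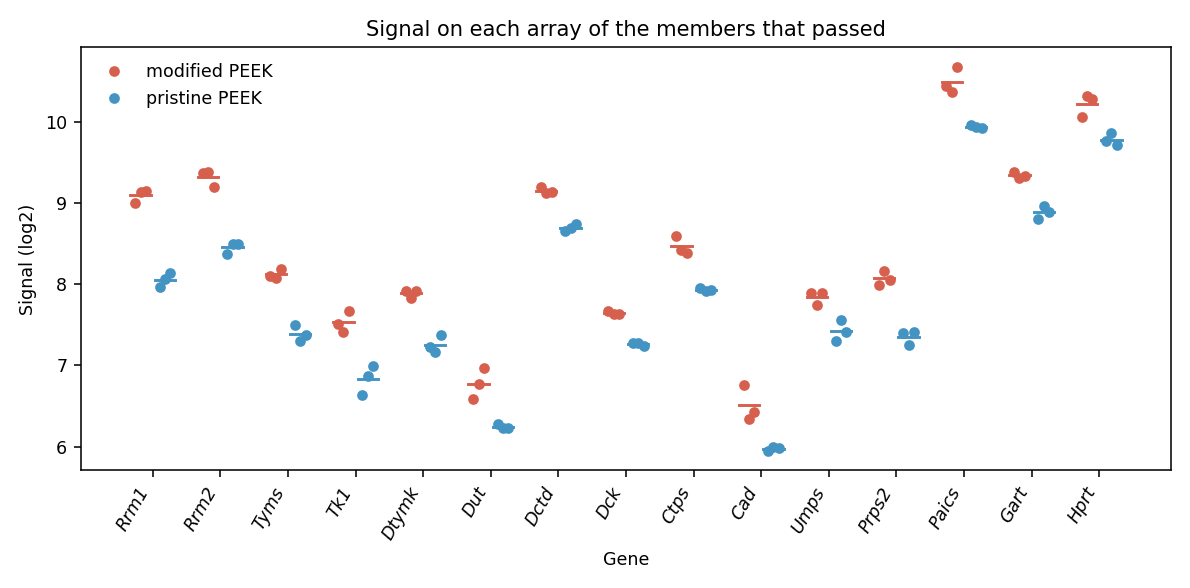
Log2 signal on each array (points) and group mean (bars) of the 15 genes that passed, with modified PEEK in red on the left and pristine PEEK in blue on the right of each gene. For each of the 15, the 3 modified PEEK arrays lie above the 3 pristine PEEK arrays.

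In the pyrimidine group the rises were in ring synthesis and in the last step to CTP. Cad, the trifunctional protein that starts the pathway, read 6.75, 6.34 and 6.43 on modified PEEK, against 5.95, 6.002 and 5.98 on pristine PEEK (0.53 ± 0.12, adjusted p = 0.0288). Umps, which completes UMP, read 7.89, 7.74 and 7.89 on modified PEEK, against 7.31, 7.56 and 7.41 on pristine PEEK (0.42 ± 0.11, adjusted p = 0.0423). Ctps, CTP synthase, read 8.59, 8.42 and 8.39 on modified PEEK, against 7.95, 7.91 and 7.93 on pristine PEEK (0.53 ± 0.09, adjusted p = 0.00965). The pristine PEEK arrays of Cad and Ctps lay close together, and the modified PEEK arrays were more spread out. Cad did not pass when modified PEEK replicate 3 or any pristine PEEK array was dropped (adjusted p up to 0.0956). Umps passed with 5 arrays only when modified PEEK replicate 2 was dropped (otherwise up to 0.148), and did not pass with arrays centred on their medians (0.0695).

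Dhodh, the mitochondrial enzyme that acts between CAD and UMPS, did not pass at 6.70, 6.75 and 6.52 on modified PEEK, against 6.42, 6.497 and 6.48 on pristine PEEK (0.19, 95% interval -0.037 to 0.42, adjusted p = 0.313). The uridine-cytidine kinase Uck2 read 10.13, 10.12 and 10.17 on modified PEEK, against 9.87, 9.90 and 9.78 on pristine PEEK (0.29, adjusted p = 0.0863). Its arrays did not overlap, whereas those of the related kinase Uck1 did (0.12, adjusted p = 0.635). Nme1 and Nme2, nucleoside diphosphate kinases that interconvert nucleotides of all bases, did not pass: the change was 0.24 for Nme1 (adjusted p = 0.148) and -0.0050 for Nme2 (adjusted p = 0.983), and Ctps2, the other CTP synthase, was at 0.013 (95% interval -0.23 to 0.26, adjusted p = 0.966).

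Purine synthesis begins with phosphoribosyl pyrophosphate, and Prps2, an enzyme that makes it, had the largest change of the purine group. Prps2 read 7.995, 8.17 and 8.05 on modified PEEK, against 7.40, 7.26 and 7.41 on pristine PEEK, a 1.65-fold rise (adjusted p = 0.00260). The next 2 by size were Paics, which catalyses a pair of middle steps, and Gart, a trifunctional folate-using enzyme. Paics read 10.43, 10.37 and 10.68 on modified PEEK, against 9.96, 9.93 and 9.92 on pristine PEEK (0.55 ± 0.11, adjusted p = 0.0141). Gart read 9.38, 9.31 and 9.33 on modified PEEK, against 8.80, 8.97 and 8.89 on pristine PEEK (0.45 ± 0.09, adjusted p = 0.0164). All 3 genes were higher on 3 of 3 modified PEEK arrays than on any pristine PEEK array. Paics did not pass when pristine PEEK replicate 2 or 3 was dropped (adjusted p up to 0.0625), nor did Gart when replicate 3 of either surface or pristine PEEK replicate 1 was dropped (up to 0.0731).

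Ppat, the amidotransferase that commits phosphoribosyl pyrophosphate to the purine pathway, did not pass: 7.41, 6.99 and 7.49 on modified PEEK, against 6.81, 6.97 and 6.99 on pristine PEEK (0.37, 95% interval 0.043 to 0.71, adjusted p = 0.165). Modified PEEK replicate 2 lay level with the pristine PEEK arrays, and without it Ppat passed (adjusted p = 0.0278). The later steps were also below the threshold: Adsl, the lyase used in both the shared path and the AMP branch, changed by 0.17 (adjusted p = 0.479) and Atic, which closes the ring with folate-borne carbon, by 0.22 (adjusted p = 0.221). In the AMP branch, Adss was at 9.51, 9.70 and 9.77 on modified PEEK, against 9.34, 9.29 and 9.26 on pristine PEEK (0.37, adjusted p = 0.0587), and its arrays did not overlap. It passed without modified PEEK replicate 1 (adjusted p = 0.0327). In the GMP branch, Gmps, which makes GMP, was at 0.082 (95% interval -0.11 to 0.28, adjusted p = 0.649), and Impdh1, an IMP dehydrogenase, was at 4.77, 4.36 and 4.68 on modified PEEK, against 4.86, 4.99 and 5.16 on pristine PEEK (-0.41, adjusted p = 0.114).

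Of the purine salvage genes, Hprt passed. Hprt, which recovers hypoxanthine and guanine, read 10.05, 10.31 and 10.28 on modified PEEK, against 9.76, 9.86 and 9.71 on pristine PEEK, a 1.36-fold rise (adjusted p = 0.0354). With 5 arrays it passed only when modified PEEK replicate 1 was dropped (otherwise adjusted p up to 0.139). Aprt, which recovers adenine, did not pass and had a change below 0: 9.93, 9.84 and 9.81 on modified PEEK, against 10.05, 10.17 and 10.16 on pristine PEEK (-0.27, 95% interval -0.48 to -0.055, adjusted p = 0.122). Prps1, the other phosphoribosyl pyrophosphate synthetase of the list, was at 0.20 (adjusted p = 0.275), and Ada, adenosine deaminase, was at 0.23 (adjusted p = 0.400). Pnp, purine nucleoside phosphorylase, was at -0.082 (adjusted p = 0.742). Mouse Pnp has a close copy, Pnp2, whose change was -0.17 (adjusted p = 0.352), and the array may not separate the pair fully.

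Promoter windows of 300 bases (250 before and 50 after the start) were available from RefSeq, build GRCm38.p6, for 35 of the 37 genes. They were searched on both strands for E2F-type runs (TTTCGCGC, TTTGGCGC, TTTCCCGC or TTTGCCGC), the letters read by the E2F factors of the S phase programme, and for the E-box CACGTG, read by Myc and related factors. None of the E2F-type runs found overlapped another. The windows shown are those of Ppat and Paics, neighbours on opposite strands of chromosome 5 whose annotated starts lie 276 bases apart, of Prps2, the other gene with an E2F-type run, and of Tyms and Dtymk, thymidylate genes that rose and hold an E-box. They are written 5′ to 3′ on the gene's strand, and capitals mark the runs that matched.
Ppat, chr5:76951529-76951828, minus strand: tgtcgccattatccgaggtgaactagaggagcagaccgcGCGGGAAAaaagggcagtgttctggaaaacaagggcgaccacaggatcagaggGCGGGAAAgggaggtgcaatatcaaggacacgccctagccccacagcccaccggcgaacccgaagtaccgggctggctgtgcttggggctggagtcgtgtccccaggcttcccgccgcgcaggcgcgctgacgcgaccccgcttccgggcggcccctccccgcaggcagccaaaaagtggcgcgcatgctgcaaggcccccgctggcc
Paics, chr5:76951052-76951351, plus strand: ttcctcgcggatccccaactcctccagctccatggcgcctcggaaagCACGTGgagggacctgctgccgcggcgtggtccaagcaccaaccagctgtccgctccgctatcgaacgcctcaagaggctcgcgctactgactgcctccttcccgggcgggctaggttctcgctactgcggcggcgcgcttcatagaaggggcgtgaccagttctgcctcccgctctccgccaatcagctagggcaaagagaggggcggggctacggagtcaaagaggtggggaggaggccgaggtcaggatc
Prps2, chrX:167382700-167382999, minus strand: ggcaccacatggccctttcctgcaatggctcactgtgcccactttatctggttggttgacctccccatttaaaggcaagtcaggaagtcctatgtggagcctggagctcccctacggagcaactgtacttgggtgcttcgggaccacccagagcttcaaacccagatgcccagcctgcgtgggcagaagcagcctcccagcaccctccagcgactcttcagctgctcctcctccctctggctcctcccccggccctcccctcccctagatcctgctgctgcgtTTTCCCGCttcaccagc
Tyms, chr5:30073576-30073875, minus strand: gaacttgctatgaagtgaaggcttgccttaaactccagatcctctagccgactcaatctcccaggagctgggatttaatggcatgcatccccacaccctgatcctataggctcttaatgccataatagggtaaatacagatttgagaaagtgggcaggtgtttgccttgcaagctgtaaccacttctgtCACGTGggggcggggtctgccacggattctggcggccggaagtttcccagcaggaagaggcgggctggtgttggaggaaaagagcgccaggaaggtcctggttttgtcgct
Dtymk, chr1:93801885-93802184, minus strand: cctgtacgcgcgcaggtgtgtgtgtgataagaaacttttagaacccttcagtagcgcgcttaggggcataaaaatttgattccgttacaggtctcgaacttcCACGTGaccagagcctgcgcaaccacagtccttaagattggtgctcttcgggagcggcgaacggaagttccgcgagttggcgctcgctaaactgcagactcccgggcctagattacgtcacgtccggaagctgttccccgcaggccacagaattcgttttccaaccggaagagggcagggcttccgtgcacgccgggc

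The E2F-type runs were found in 2 of the 35 genes, Ppat with 2 runs and Prps2 with 1, which is 5.71% of the genes against 2.60% of the 27025 genes in the promoter table. The E-box was found in 5 genes (Atic, Dtymk, Tyms, Paics and Nme1), 14.3% against 8.09% of all genes in the table. Of the 5 genes with an E-box 3 rose, and of the 30 without one 12 rose, with median changes of 0.55 and 0.37. Rrm1, Rrm2 and Tk1, which had 3 of the 5 largest rises, held neither kind of run in these windows. A match is a description of letters, and the lack of one says only that these letters are not in this window.

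The 3 folate genes of the list all had changes above 0, and none passed. At an unadjusted p under 0.05, 3 were higher and 0 lower, against 11.3% and 11.4% of all genes. With the intensity trend 2 were higher, against 8.13% of all genes. Mthfd1l, the mitochondrial formyltetrahydrofolate synthetase that releases formate, read 8.67, 8.56 and 8.61 on modified PEEK, against 8.28, 8.33 and 8.27 on pristine PEEK (0.32, adjusted p = 0.0589). Mthfd1, the cytosolic trifunctional enzyme that takes formate up into folate, read 7.21, 7.05 and 7.42 on modified PEEK, against 6.76, 7.05 and 6.89 on pristine PEEK (0.33, adjusted p = 0.172). Shmt1, the cytosolic serine hydroxymethyltransferase, read 6.54, 5.95 and 6.08 on modified PEEK, against 5.60, 5.69 and 5.90 on pristine PEEK (0.46, 95% interval 0.081 to 0.83, adjusted p = 0.135). Mthfd1l and Shmt1 did not overlap between the surfaces, and Mthfd1 did.

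A wider list of 60 genes from the same pathways, outside the 39, had 52 measured members, of which 4 rose and 9 fell. These are 7.69% and 17.3% of the list, against 5.24% and 5.15% of all genes. The median change of the list was -0.014. Ampd3, an AMP deaminase, read 7.88, 7.75 and 7.52 on modified PEEK, against 9.10, 8.91 and 8.98 on pristine PEEK, 2.43-fold lower (adjusted p = 0.000474). Cda, cytidine deaminase, read 3.99, 4.24 and 3.88 on modified PEEK, against 4.85, 5.27 and 5.39 on pristine PEEK (-1.13 ± 0.16, adjusted p = 0.00333), a level next to the background on modified PEEK. Cmpk2, a mitochondrial kinase of UMP and CMP that interferon induces in mouse macrophages, fell by 0.72 (adjusted p = 0.00233), but did not pass with arrays scaled to the poly-A spikes (-0.48, adjusted p = 0.0760).

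Of 16 other folate genes measured, 1 rose and 4 fell. Aldh1l2, the mitochondrial formyltetrahydrofolate dehydrogenase, read 8.07, 7.54 and 7.94 on modified PEEK, against 8.69, 8.81 and 8.67 on pristine PEEK (-0.87 ± 0.14, adjusted p = 0.00669). Slc46a1, the proton-coupled folate transporter, read 4.70, 4.71 and 4.65 on modified PEEK, against 5.44, 5.62 and 5.36 on pristine PEEK (-0.79 ± 0.10, adjusted p = 0.00203), but did not pass with arrays scaled to the poly-A spikes (-0.54, adjusted p = 0.0614). The reduced folate carrier Slc19a1, singled out after its value was seen, went the opposite way, with 8.91, 8.85 and 8.73 on modified PEEK, against 8.44, 8.45 and 8.38 on pristine PEEK (0.41 ± 0.09, adjusted p = 0.0273). With 5 arrays it passed only when modified PEEK replicate 3 was dropped (otherwise adjusted p up to 0.117). Amt, of the glycine cleavage system, fell by 0.80 to a level of 3.81 on modified PEEK, against 4.61 on pristine PEEK, next to the background. Mthfd2l fell by 0.42, but passed neither with any set of 5 arrays (adjusted p up to 0.121) nor scaled to the poly-A spikes (-0.18, 0.448). The mitochondrial serine and folate enzymes Shmt2 (0.13, adjusted p = 0.548) and Mthfd2 (-0.010, 95% interval -0.22 to 0.20, adjusted p = 0.967) did not pass.

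Among 16 other deoxynucleotide and pyrimidine genes, 1 rose and 4 fell. Nme3, a nucleoside diphosphate kinase, rose by 0.59 (adjusted p = 0.0362), and Uprt fell by 0.44 (adjusted p = 0.0165). Neither passed when modified PEEK replicate 3 or any pristine PEEK array was dropped (adjusted p up to 0.113 for Nme3 and 0.0727 for Uprt), and Uprt did not pass scaled to the poly-A spikes (-0.19, 0.441). Of 15 other purine genes, 2 rose and Ampd3 fell (13.3% and 6.67%, against 5.24% and 5.15% of all genes). Adssl1, an adenylosuccinate synthase related to Adss, read 7.85, 7.68 and 7.503 on modified PEEK, against 6.91, 7.14 and 7.17 on pristine PEEK (0.60 ± 0.12, adjusted p = 0.0179). Gda, guanine deaminase, read 8.47, 8.55 and 8.49 on modified PEEK, against 7.94, 8.11 and 7.88 on pristine PEEK (0.53 ± 0.10, adjusted p = 0.0119). Adssl1 did not pass when pristine PEEK replicate 1 was dropped (adjusted p = 0.0693), nor did Gda when pristine PEEK replicate 1 or 3 was dropped (up to 0.0629). Of 5 nucleoside transporters 0 passed. At an unadjusted p under 0.05, 1 was higher (against 11.3% of all genes), the equilibrative transporter Slc29a1 (0.45, adjusted p = 0.0515). Its relative Slc29a3 was at 0.098 (adjusted p = 0.654).

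**Figure D3:**
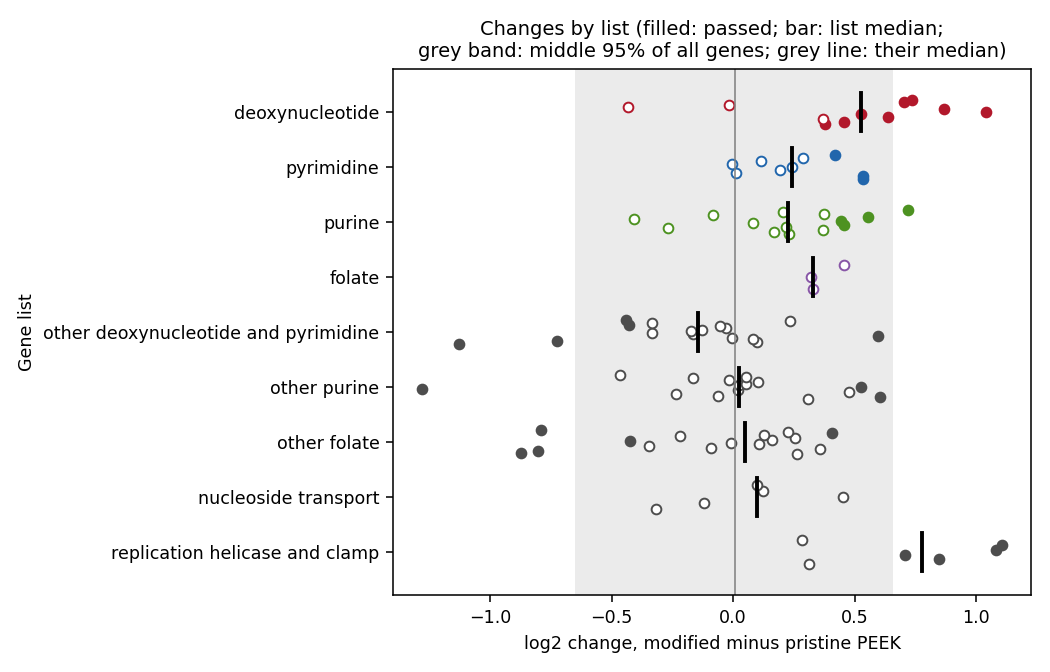
Log2 change, modified minus pristine PEEK, of each gene by list; filled points passed, black bars are list medians and the grey band holds the middle 95% of all genes, from -0.65 to 0.65. The deoxynucleotide median is 0.53, that of the replication helicase and clamp genes is 0.78, and the 4 other lists of the pathways have medians from -0.15 to 0.098.

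Enzymes or subunits of related function were set against each other within each array, for 10 pairs. The within-array difference was put to an exact permutation test (two-sided). Its smallest p with 3 against 3 arrays is 0.1, so no pair could pass. The change of Rrm2 exceeded that of Rrm2b by 1.30, and that of Tk1 exceeded that of Tk2, the mitochondrial thymidine kinase, by 1.13. Each had an exact p of 0.1 and an adjusted p of 0.143 over the pairs. Tk2 itself read 6.70, 6.45 and 6.64 on modified PEEK, against 7.01, 7.07 and 7.002 on pristine PEEK (-0.43, limma adjusted p = 0.0317), but with 5 arrays it passed only when modified PEEK replicate 1 was dropped (otherwise up to 0.118), and it did not pass scaled to the poly-A spikes (-0.18, 0.426). The change of Hprt exceeded that of Aprt by 0.71, that of Ctps exceeded that of Ctps2 by 0.52, and that of Prps2 exceeded that of Prps1 by 0.52, with the surfaces not overlapping in any of these 3 differences (exact p = 0.1 for each).

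Smaller differences separated the surfaces for Shmt1 over Shmt2 (0.33) and Nme1 over Nme2 (0.25), also at an exact p of 0.1. The coding sequences of Nme1 and Nme2 are close, so part of the signal of one may come from the other. The arrays overlapped for Rrm1 against Rrm2 (0.18, exact p = 0.2), Uck1 against Uck2 (-0.17, exact p = 0.2) and Mthfd1 against Mthfd1l (0.0092, exact p = 0.9).

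**Figure D4:**
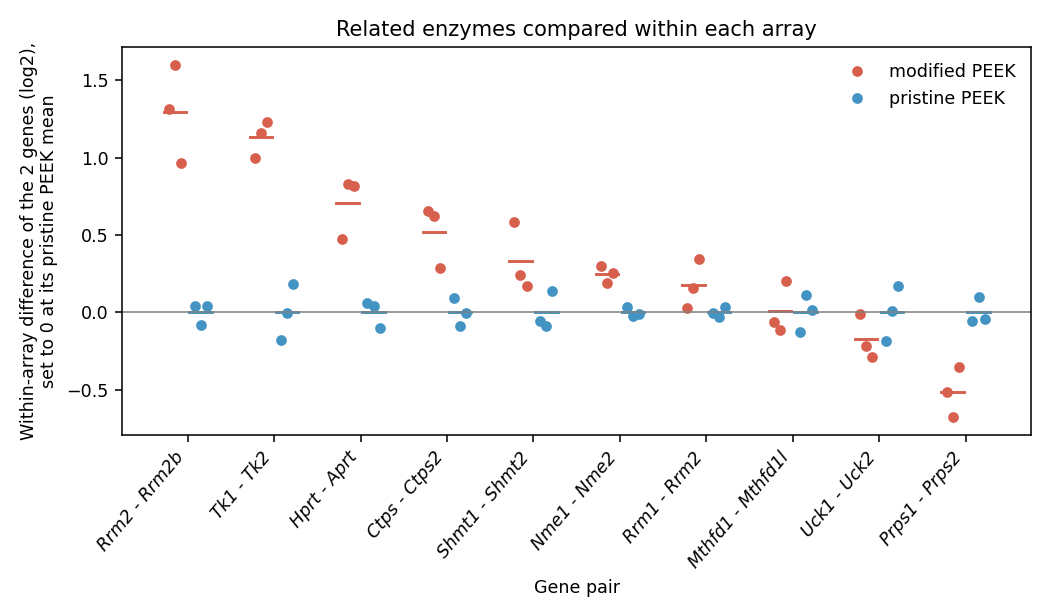
Difference of 2 genes of related function within each array (log2, vertical axis), shifted so that its pristine PEEK mean is 0. Modified PEEK arrays are in red on the left and pristine PEEK arrays in blue on the right of each pair, and bars are means. The modified PEEK means run from 1.30 for Rrm2 minus Rrm2b to -0.52 for Prps1 minus Prps2.

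Genes of the replicative helicase and its sliding clamp, used in copying DNA, were listed beside the enzymes. Of 6 measured genes 4 rose and 0 fell (6 higher at an unadjusted p under 0.05, none lower), with a median change of 0.78. Of all genes, 5.24% rose and 5.15% fell. At an unadjusted p under 0.05, 11.3% of all genes were higher and 11.4% lower. Mcm6 read 9.64, 9.70 and 9.64 on modified PEEK, against 8.59, 8.57 and 8.504 on pristine PEEK (1.11 ± 0.09, adjusted p = 0.000271), and Mcm5 rose by 1.08 (adjusted p = 0.000535). The sliding clamp gene Pcna (0.28, adjusted p = 0.101) and Mcm2 (0.31, adjusted p = 0.0934) did not pass. The part that a change in the share of cells in S phase has in the enzyme genes was not tested.

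Poly-A spike probe sets averaged 6.71 ± 0.14 on modified PEEK and 6.96 ± 0.15 on pristine PEEK (SD, n = 3), a difference of -0.25, and the hybridisation spikes differed by -0.17. The exact permutation test (two-sided) gave p = 0.2 for each, and 3 against 3 arrays cannot go below 0.1. Scaling the arrays to them moved the median change of all genes to 0.26 and the calls to 1575 higher and 290 lower, against 1023 higher and 1004 lower as deposited. Spike scaling and median centring each raised every change by the same amount, so neither could turn a rise negative. With the repeated quantile normalization all 15 genes that rose also had a positive change. Dck and Umps did not pass with arrays centred on their medians. Relative to the median of all genes, the deoxynucleotide median was 0.52, the pyrimidine median 0.23, the purine median 0.21 and the folate median 0.32; spike scaling shifts all genes of an array alike and cannot alter these.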

How the data were processed

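The authors deposited log2 signals per probe set; RMA is named in the submitters' processing notes, with no version, and the range of the values is that of a log2 scale. Quantile normalization, which RMA uses, makes array distributions alike and so hides any shift in RNA content shared by most genes. No source used here names the genome build of the array annotation. Of 29129 features, 19572 probe sets named 1 gene; where a gene had several (55 genes, 0 of the 37 enzymes), the brightest by its mean over 6 arrays was taken, leaving 19505 genes. No filter on dim probes was used.

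The comparison used lmFit and eBayes of limma (version 3.58.1, R 4.3.3; 4 residual and 4.09 prior degrees of freedom, two-sided), and p-values were adjusted over all 19505 genes by the Benjamini-Hochberg method. Changes are modified minus pristine PEEK. On simulated data of this comparison (19505 genes, 200 changed, 5 runs) it found 11.3% of the genes shifted by 0.5. It found 84.2% at a shift of 1 and 98.8% at a shift of 2, and 5.31% of its calls were false. In the data 2027 genes were called, against 200 changed in the simulation. The share found depends on that number, so it may differ in the data. Values are given on every array for genes that passed, up to 7 a group by size of change, and for up to 3 a group that did not, taken by level. Beyond this rule, and chosen after their values were seen, are the array values of Dck, Dhodh, Ppat and Impdh1, and the gene Pnp2. From the wider lists up to 4 that passed were named, and up to 2 that did not, taken by level; Slc19a1 stands beyond these, and Tk2 was named for its pairing with Tk1. The genes and lists were chosen with earlier results of these data known. The number of arrays limits the precision. All columns of the table were mapped to samples (0 unused).

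The alternatives tried were a repeated quantile normalization, centring each array on its median, scaling to the poly-A spikes, dropping the lowest 25% of genes, averaging a gene's probe sets, an intensity trend (also with robust fitting), array weights, a block for replicate number, and each array left out in turn.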

Additional observations from a re-analysis of the deposited data

How the results depend on the processing

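Of the 15 genes that passed, 7 did so under all 15 alternatives; of the 22 that did not, 12 passed under none. With the replicate block, 8 members were higher, and 646 genes were higher among all genes (1268 passing in either direction). The titles' numbers did not pair the arrays (correlations of same-numbered deviations -0.17, -0.16 and 0.068). With an intensity trend 3305 genes passed, 1719 of them lower, and 2 members were lower. With robust fitting as well 3282 passed, 1702 of them lower, and 2 members were lower. Leaving out 1 array gave 7 to 14 members higher and 594 to 903 higher among all genes (1142 to 1863 passing in either direction). In none of the fits without 1 array was a member called lower.

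Changes near 0 turned sign, none of them past the threshold. Nme2 was at 0.012 with quantile normalization again, 0.0062 centred on medians and 0.24 scaled to spikes, and from -0.025 to 0.016 without 1 array. Scaled to spikes, Samhd1 was at 0.23, Pnp at 0.17 and Mthfd2 at 0.24, and centred on medians Mthfd2 was at 0.0010. Without 1 array, Samhd1 ran from -0.041 to 0.021, Pnp from -0.14 to 0.00094, Ctps2 from -0.066 to 0.084 and Mthfd2 from -0.038 to 0.026. The difference of Mthfd1 minus Mthfd1l ran from -0.089 to 0.071. Spike scaling and median centring each raised every change by the same amount, so the turns under them are that offset. The cause of the other turns was not tested. Scaled to spikes, the falls of Slc46a1 (adjusted p = 0.0614) and Cmpk2 (0.0760), and those of Uprt, Tk2 and Mthfd2l, did not pass.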
